A study of Mus musculus with 12 samples.

Results

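The 10 genes of the VEGF and angiopoietin signalling system described here are the ligands Vegfa, Vegfb and Vegfc, the VEGF receptors Kdr and Flt1 with the co-receptor Nrp1, the angiopoietins Angpt1 and Angpt2, and the Tie receptors Tek and Tie1. They were chosen by symbol from the count tables of isolated mouse glomeruli, which list 26264 symbols, and all 10 were found and tested. Glomeruli came from male mice, 8 weeks old, of the substrain BALB/cAjcl, called Ajcl here, or of its relative BALB/cByJcl, called ByJcl, either untreated (baseline) or on Day 5 after a single intravenous dose of 10 mg/kg adriamycin (ADR), a podocyte toxin. Each of the 4 groups held 3 poly(A) RNA-seq libraries. The design asks how the substrains differ before ADR and on Day 5, and how each differs between the time points. The baseline samples are labelled untreated, although the treatment protocol also speaks of control animals given saline, so whether baseline mice were injected is uncertain. The baseline and Day 5 counts were deposited in separate tables, so table, any difference in injection, and ADR cannot be told apart. The labels do not say whether a library is 1 animal or a pool, so p-values measure the spread between libraries.

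In the glomerulus, podocytes secrete VEGF-A across the basement membrane to the fenestrated endothelium. There KDR (VEGFR2) carries most of the signal, FLT1 (VEGFR1) binds the ligand tightly and can act as a decoy, and neuropilin-1 helps KDR as a co-receptor. Angiopoietin-1, made largely by mural cells, activates the endothelial receptor TEK (TIE2), angiopoietin-2 competes with it in many settings, and TIE1 modulates TEK.

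Total counts ranged from 42198416 to 54687045 per library, so 3 counts corresponded to between 0.0549 and 0.0711 CPM (counts scaled to a common library size). Every value of the 10 genes lay above this. How depth and the small number of libraries each limit precision was not compared. Levels are given as CPM scaled by edgeR's TMM factors, with the SD between libraries. Ajcl Day 5 replicate 1 was left out of the fit because the study excluded it for reduced glomerular purity, and its summed CPM over 8 tubular markers was 4639, against 369 to 4174 in the other libraries. Its values for the 10 genes are given beside the others. Ajcl at Day 5 therefore rests on 2 libraries in each test below. Tubular markers were also unequal between substrains, at 1221 to 4174 CPM in Ajcl and 434 to 1684 CPM in ByJcl at baseline. On Day 5 they stood fully apart, at 1731 and 2382 CPM in Ajcl and 369 to 1495 CPM in ByJcl, and their part in the results was not tested. The labelled tissue was checked on its markers, and none of the 12 podocyte and 12 endothelial markers was at 0 in any library. Differences were tested with edgeR's quasi-likelihood test over 17002 genes, and a gene was called at a Benjamini-Hochberg adjusted p below 0.05.

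Per kilobase of exon, Vegfa had the highest mean level of the 10 genes at baseline, at 344 ± 58.5 CPM per kb in Ajcl and 398 ± 33.6 CPM per kb in ByJcl (SD, n = 3 each). Kdr followed at 186 ± 24.1 and 209 ± 29.8 CPM per kb. Nrp1, Tek, Tie1 and Flt1 came next, and the libraries of Nrp1 and Tek overlapped in both substrains. Angpt2, Vegfb, Vegfc and Angpt1 were the lowest, with Angpt1 at 1.51 ± 0.115 CPM per kb in Ajcl and 1.24 ± 0.0834 CPM per kb in ByJcl. On Day 5 Vegfa and Kdr overlapped in both substrains, and in ByJcl the mean of Kdr (137 ± 36.8 CPM per kb) stood above that of Vegfa (129 ± 17.6 CPM per kb). These levels are sums over isoforms, which gene counts do not separate. The divisor is the joined length of all annotated exons, 4299 bases for Vegfa and 9199 for Kdr, so the order depends on it. By mean CPM at baseline Kdr stood above Vegfa, at 1709 against 1479 CPM in Ajcl and 1919 against 1712 CPM in ByJcl.

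Counted over the 10 genes, 2 were called between baseline and Day 5 in ByJcl, both lower, where 10.6% of all genes tested were called and 4.83% were called lower. No member was called between baseline and Day 5 in Ajcl (0.312% of all genes), between substrains at baseline (0.159%) or between substrains on Day 5 (0.165%). In the interaction no gene was called by edgeR (0%). There 1363 genes (8.02% of all genes), Vegfa and Angpt2 among them, had an unadjusted p below 0.05, and DESeq2 called 22 genes (0.129%) and no member. The other DESeq2 counts were 4 members in ByJcl (15.8% of all genes), 1 in Ajcl (1.77%) and 1 between substrains on Day 5 (3.15%). With all 12 libraries they were 1 in ByJcl (7.21%), 0 in Ajcl (0.325%) and 1 between substrains on Day 5 (0.433%). In ByJcl 6 members had Day 5 libraries wholly below baseline, against 16.1% of all genes. They were Vegfa, Vegfb, Kdr, Flt1, Nrp1 and Angpt1. In Ajcl these were 5 members, Vegfa, Vegfc, Nrp1, Angpt1 and Angpt2, against 11.5% of genes, and 3 with the excluded library. Between substrains 1 member stood apart higher in ByJcl at each time, Angpt2, against 9.19% of genes at baseline and 16.9% on Day 5. Those apart lower were Angpt1 at baseline (5.29% of genes) and Vegfa, Kdr and Angpt1 on Day 5 (16.5% of genes). The median log2FC of the members on Day 5 was -0.47 in ByJcl and -0.25 in Ajcl, beside 0.01 and -0.01 over all genes tested. The ByJcl comparisons share libraries with one another, as do the Ajcl comparisons, so these values are not independent.

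**Figure D1:**
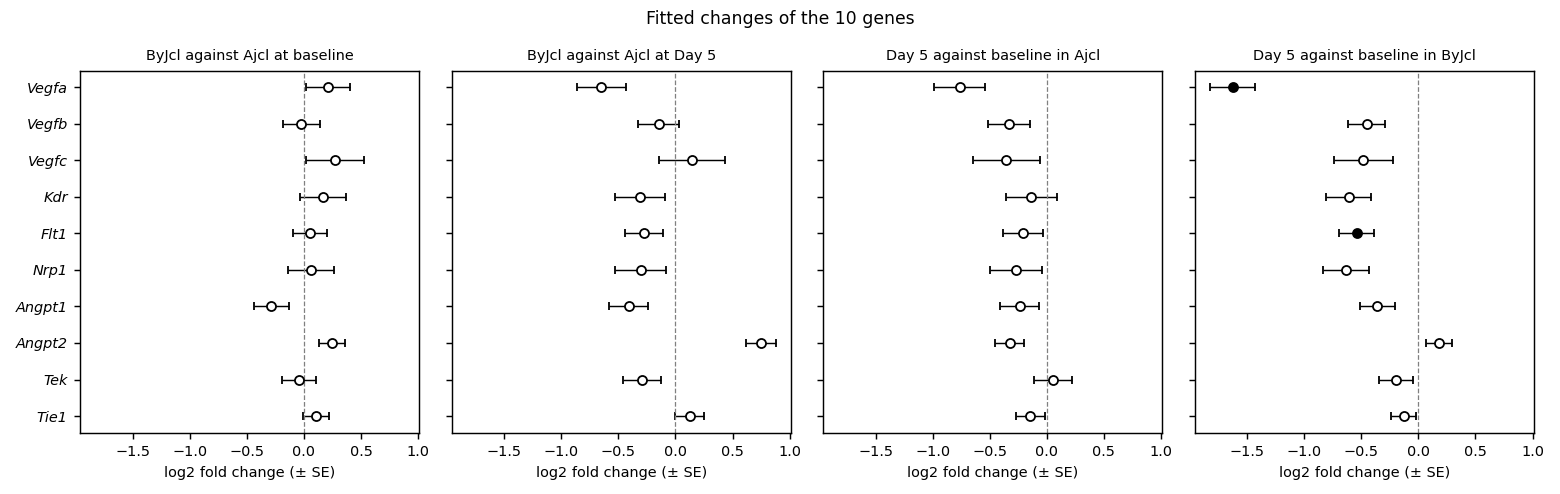
Log2 fold changes (x axis) of the 10 genes (y axis) in the 4 comparisons, with whiskers of 1 SE. Filled points passed an adjusted p below 0.05 and open points did not. In ByJcl 9 of the 10 values on Day 5 lie below 0 and only Vegfa and Flt1 are filled, while Angpt2 is the highest point between substrains on Day 5.

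Promoter sequence is shown for Vegfa and Flt1, the members called in a comparison. RefSeq's table for GRCm38.p6 held 9 start sites of 8 members, all but Angpt1 and Angpt2. The 250 bases before the start of Vegfa (the first of 2 listed starts) lie on the minus strand at chr17:46032378-46032627, and those of Flt1 on the minus strand at chr5:147726012-147726261. Capitals mark GGGCGG, the core of the Sp1 site, or its reverse complement CCGCCC, and TGACGTCA, the full cyclic AMP response element.
Vegfa: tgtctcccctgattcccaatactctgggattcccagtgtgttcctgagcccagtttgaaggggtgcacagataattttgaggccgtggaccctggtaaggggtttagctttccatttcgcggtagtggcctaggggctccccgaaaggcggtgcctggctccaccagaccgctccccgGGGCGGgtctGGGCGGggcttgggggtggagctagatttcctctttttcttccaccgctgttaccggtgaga
Flt1: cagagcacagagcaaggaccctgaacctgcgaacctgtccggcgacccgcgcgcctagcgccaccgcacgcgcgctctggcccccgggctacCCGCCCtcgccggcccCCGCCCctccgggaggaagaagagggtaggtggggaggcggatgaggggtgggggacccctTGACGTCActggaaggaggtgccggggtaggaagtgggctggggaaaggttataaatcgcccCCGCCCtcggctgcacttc
Both strands were searched for these letters and for ACGTG, the core of the hypoxia response element, and the letters were chosen after the sequences had been read. Vegfa held GGGCGG 2 times and Flt1 3 times, and 32.7% of 32851 promoter windows held it at least once. TGACGTCA stood 1 time in Flt1 and in 1.55% of all windows. ACGTG was in neither, though the second Vegfa start held it 1 time, and 16.6% of windows held it. Bases outside these 250 and other forms of that element were not searched, so an absence here covers these letters in these windows only. A match in these letters is a description of the sequence only.

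Vegfa had the lowest log2 fold change of the 10 genes on Day 5 in both substrains. It lies on chromosome 17 of GRCm39 from 46327919 to 46343309. At baseline it was at 1326, 1769 and 1342 CPM in the Ajcl libraries and at 1726, 1561 and 1849 CPM in the ByJcl libraries. On Day 5 the ByJcl libraries were at 609, 468 and 588 CPM, and Ajcl replicates 2 and 3 at 1082 and 658 CPM, with 719 CPM in the excluded replicate 1. The substrains overlapped at baseline, every Day 5 library lay below every baseline library, and every ByJcl Day 5 library lay below the Ajcl Day 5 libraries. In ByJcl, Vegfa fell by 1.62 on the log2 scale between baseline and Day 5 (SE 0.20, adjusted p = 0.0016, edgeR), to 0.324 of its baseline level. In Ajcl the log2 fold change (log2FC) was -0.77 (SE 0.22, adjusted p = 0.242, edgeR), which was not a call. DESeq2 called it on the same 11 libraries (adjusted p = 0.0279), as did edgeR when replicate 1 took the place of replicate 2 (log2FC -1.14, adjusted p = 0.0183). The other 15 alternatives gave no call.

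The difference between the substrains on Day 5 was a log2FC of -0.65 for Vegfa (SE 0.21, adjusted p = 0.239, edgeR), and that at baseline was 0.21 (SE 0.19, adjusted p = 0.730, edgeR). The substrain by treatment interaction, which is the response in ByJcl minus that in Ajcl, was -0.86 (SE 0.29, unadjusted p = 0.0124, adjusted p = 0.620, edgeR). Leaving out 1 library at a time, the Day 5 difference ranged from -0.74 to -0.32 and the interaction from -1.01 to -0.51. Both were closest to 0 when Ajcl Day 5 replicate 1 took the place of replicate 2. A difference between the 2 responses was therefore not shown. In bulk RNA fewer podocytes and less RNA per podocyte cannot be told apart.

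Most podocyte markers had a log2FC below 0 on Day 5, as Vegfa did, and were called in ByJcl only. In ByJcl 11 of the 12 markers were called lower on Day 5 and Cdkn1c, a cell cycle inhibitor, was called higher. The shares over all genes tested there were 4.83% called lower and 5.75% called higher. In Ajcl 11 of the 12 were below 0 and none was called (0.312% of all genes). There 4 had libraries apart and lower, against 11.5% of genes. The summed level of the 12 markers in ByJcl was 21077 to 24398 CPM at baseline and 10357 to 14371 CPM on Day 5. In Ajcl it was 16853 to 23171 CPM and 13321 to 17795 CPM (12175 CPM in the excluded library), which overlapped. Divided by this sum, Vegfa was 7.07%, 7.41% and 8.25% in the ByJcl baseline libraries and 4.24%, 4.52% and 5.45% on Day 5. In Ajcl it was 7.87%, 7.64% and 7.39% at baseline and 6.08% and 4.94% on Day 5, with 5.91% in replicate 1. Relative to the podocyte markers, Vegfa was thus lower in every Day 5 library of both substrains, by 0.68 on the log2 scale in ByJcl and 0.48 in Ajcl. The exact permutation p (two-sided) was 0.1 in ByJcl and 0.2 in Ajcl, the smallest that 3 against 3 and 2 against 3 libraries allow (adjusted p = 0.444 over 20 ratio tests). Between substrains the ratio overlapped at both times, with differences of -0.01 at baseline and -0.22 on Day 5.

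**Figure D2:**
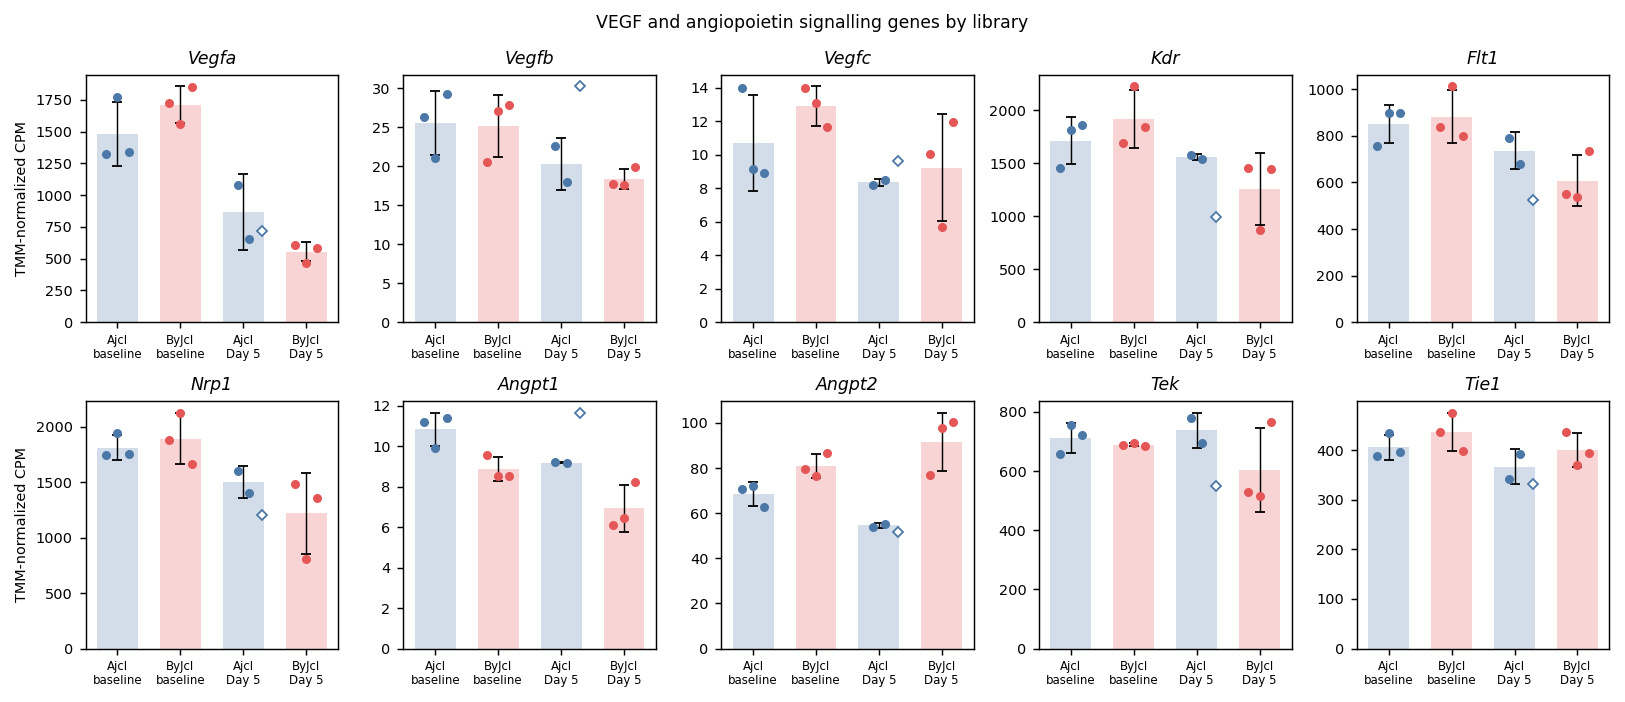
TMM-normalized CPM (y axis, from 0, with its own range for each gene) in the 4 groups (x axis). Circles are libraries, bars and whiskers are the mean and SD, and the open diamond is Ajcl Day 5 replicate 1, left out of mean and SD. Vegfa stands lower in every Day 5 library, and Angpt2 is between 77.0 and 100.3 CPM in ByJcl on Day 5 against 53.9 and 55.3 CPM in Ajcl.

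The other 2 ligands gave no call in any comparison. Vegfb, which binds FLT1, lies on chromosome 19 from 6958447 to 6965127. It was at 20.6, 27.1 and 27.8 CPM in ByJcl at baseline and at 17.7, 17.6 and 19.9 CPM on Day 5, and these libraries did not overlap. The log2FC was -0.45 (SE 0.16, adjusted p = 0.0979, edgeR). In Ajcl it was at 26.3, 21.1 and 29.3 CPM at baseline and 22.7 and 17.98 CPM on Day 5, while replicate 1, the library with the highest tubular marker sum, was at 30.3 CPM. With that library the Ajcl groups still overlapped.

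Vegfc, a ligand of FLT4 and of KDR on chromosome 8 from 54530257 to 54640131, lay between 5.70 and 14.0 CPM over all libraries. Its log2FC on Day 5 was -0.48 in ByJcl (SE 0.26, adjusted p = 0.260, edgeR) and -0.35 in Ajcl (SE 0.29, adjusted p = 0.772, edgeR). The ByJcl libraries overlapped between the times. The Ajcl libraries did so only with replicate 1, at 9.61 CPM.

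The 3 receptors of the VEGF arm were lower in every ByJcl Day 5 library than in every ByJcl baseline library, and Flt1 alone was called. Flt1 lies on chromosome 5 from 147498414 to 147662826. In ByJcl it was at 838, 1012 and 797 CPM at baseline and at 550.4, 538 and 734 CPM on Day 5. It fell by 0.54 on the log2 scale (SE 0.15, adjusted p = 0.0471, edgeR). The call stood close to the threshold. It was kept in 5 of 17 alternatives, with adjusted p from 0.0114 by DESeq2 to 0.174 without ByJcl baseline replicate 2. It was lost with RLE size factors, all 12 libraries or the replicate block, without Ajcl baseline replicate 2 or 3, without either Ajcl Day 5 library, and without any ByJcl library other than Day 5 replicate 3. In Ajcl, Flt1 was at 755, 899 and 896 CPM at baseline and at 792 and 679 CPM on Day 5 (523 CPM in replicate 1), and these libraries overlapped, with a log2FC of -0.21 (SE 0.17, adjusted p = 0.772, edgeR).

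Kdr, on chromosome 5 from 76093487 to 76139884, was at 1694, 2224 and 1839.7 CPM in ByJcl at baseline. On Day 5 it was at 1455, 865 and 1449 CPM. ByJcl Day 5 replicate 2 was the lowest of these. The log2FC of Kdr was -0.61 (SE 0.20, adjusted p = 0.0741, edgeR), and DESeq2 called it (adjusted p = 0.0237). In Ajcl, Kdr was at 1455, 1814 and 1859 CPM at baseline and at 1575 and 1539 CPM on Day 5, a log2FC of -0.13 (SE 0.22, adjusted p = 0.897, edgeR). The Ajcl times overlapped. Leaving out 1 library at a time moved the Ajcl value from -0.48 to -0.06 for Kdr and from -0.54 to -0.16 for Flt1, both farthest from 0 with replicate 1 in place of Day 5 replicate 2. In ByJcl the log2FC of Kdr was -0.40 without Day 5 replicate 2. The excluded Ajcl library was at 988 CPM, near the lowest ByJcl library, and including it turned the separation of Kdr between the substrains on Day 5 into an overlap.

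Nrp1, on chromosome 8 from 129085085 to 129231082, was at 1883, 2128 and 1666 CPM in ByJcl at baseline and at 1488, 807 and 1359 CPM on Day 5. Its log2FC was -0.64 (SE 0.20, adjusted p = 0.0685, edgeR). DESeq2 (adjusted p = 0.0183) and the fit without ByJcl Day 5 replicate 1 (adjusted p = 0.0400) called it. In Ajcl, Nrp1 was at 1742, 1941 and 1754 CPM at baseline and at 1604 and 1401 CPM on Day 5, with 1200.4 CPM in replicate 1. Every one of these Day 5 libraries was below the baseline libraries, though the log2FC of -0.27 (SE 0.23, adjusted p = 0.777, edgeR) was not a call. Leaving out 1 library at a time, it ranged from -0.52 to -0.22 in Ajcl and from -0.80 to -0.41 in ByJcl, where it was closest to 0 without Day 5 replicate 2.

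Of the 12 endothelial markers, 7 had a log2FC above 0 and 5 below 0 in ByJcl on Day 5. Their summed level was 7206 to 8096 CPM in ByJcl at baseline and 5352 to 7764 CPM on Day 5, with the lowest value in ByJcl Day 5 replicate 2, the library lowest for Kdr and Nrp1. In ByJcl 2 of the 12 were called lower, the glomerular endothelial gene Ehd3 (log2FC -0.81) and the tight junction gene Cldn5 (-1.67), and 2 were called higher, the diaphragm gene Plvap (0.95) and the adhesion gene Esam (0.68). The shares over all genes tested there were 4.83% called lower and 5.75% called higher. Over this sum, Kdr was 23.0%, 27.5% and 25.5% in ByJcl at baseline and 18.7%, 16.2% and 21.8% on Day 5, which did not overlap, a log2 difference of -0.43 (exact permutation p = 0.1, the smallest possible). In Ajcl the share was 22.3%, 26.2% and 28.1% at baseline and 24.6% and 24.7% on Day 5, with 16.4% in replicate 1. The part of cell composition in the receptor values was not tested.

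The ratio of Flt1 to Kdr, the 2 VEGF receptors of the set, overlapped in all 4 comparisons. It was 0.495, 0.455 and 0.433 in ByJcl at baseline and 0.378, 0.621 and 0.507 on Day 5. ByJcl Day 5 libraries thus spread on both sides of the baseline libraries, and the log2 difference was 0.10 (exact permutation p = 0.7).

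The angiopoietins stood apart between the substrains in opposite directions, without a call. Angpt2, on chromosome 8 from 18739202 to 18791603, was at 70.9, 72.0 and 62.6 CPM in Ajcl and at 79.7, 76.6 and 86.8 CPM in ByJcl at baseline. On Day 5 it was at 53.9 and 55.3 CPM in Ajcl, with 51.7 CPM in replicate 1, and at 77.0, 97.9 and 100.3 CPM in ByJcl. The ByJcl libraries lay above the Ajcl libraries at both times, the excluded library included. On Day 5 the log2FC was 0.75 (SE 0.13, unadjusted p = 0.000118, adjusted p = 0.0590, edgeR), a 1.68-fold higher level in ByJcl that narrowly missed the threshold. It was called in 6 of 17 alternatives, among them DESeq2 (adjusted p = 7.9e-05) and the fit on all 12 libraries (adjusted p = 0.01615), and the adjusted p reached 0.172 at most. At baseline the log2FC was 0.24 (SE 0.11, adjusted p = 0.596, edgeR).

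Between baseline and Day 5 the log2FC of Angpt2 was -0.33 in Ajcl (SE 0.13, adjusted p = 0.405, edgeR), with all libraries apart, and 0.18 in ByJcl (SE 0.11, adjusted p = 0.346, edgeR), with overlap. The interaction was 0.51 (SE 0.17, unadjusted p = 0.0127, adjusted p = 0.620, edgeR). Mcph1, a gene on the opposite strand, shares 3387 of the 4792 exonic bases of Angpt2 in the GENCODE annotation. The strand setting of the counting is not given in the sources used here. Mcph1 was between 3.95 and 6.00 CPM in every library, far under Angpt2. Whether reads in the shared bases were lost from the Angpt2 counts was not tested. Angpt1 likewise shares 815 exonic bases with the opposite-strand RNA Gm17473, which the tables do not list under that name.

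Angpt1, on chromosome 15 from 42288058 to 42540417, was at 11.2, 9.90 and 11.4 CPM in Ajcl and at 9.59, 8.55 and 8.55 CPM in ByJcl at baseline. On Day 5 it was at 9.22 and 9.16 CPM in Ajcl (11.6 CPM in replicate 1) and at 6.11, 6.44 and 8.23 CPM in ByJcl. ByJcl lay below Ajcl at both times. The summed level of 8 immune markers was also apart between the substrains, at 24.7 to 44.7 CPM in Ajcl and 54.8 to 95.4 CPM in ByJcl at baseline. On Day 5 it was 14.9 to 52.7 CPM in Ajcl and 63.7 to 120 CPM in ByJcl, and none of the 8 was at 0 or called between substrains. The 8 mural markers summed to 1801 to 2032 CPM in Ajcl and 1976 to 2282 CPM in ByJcl at baseline, which overlapped. On Day 5 they stood apart, at 1910 and 2102 CPM in Ajcl (1806 CPM in replicate 1) and 2158 to 2699 CPM in ByJcl. There 1 of the 7 tested, Tagln, was called higher in ByJcl, and 0.165% of all genes were called in either direction. The part of immune, mural and tubular markers in the angiopoietin values was not tested. The log2FC of Angpt1 between substrains was -0.29 at baseline (SE 0.15, adjusted p = 0.621, edgeR) and -0.41 on Day 5 (SE 0.17, adjusted p = 0.326, edgeR), neither a call. From baseline to Day 5 it was -0.36 in ByJcl (SE 0.15, adjusted p = 0.162, edgeR) and -0.24 in Ajcl (SE 0.17, adjusted p = 0.738, edgeR), where it was -0.07 with replicate 1 in place of Day 5 replicate 3.

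The ratio of Angpt2 to Angpt1 within a library joins these values. At baseline the Ajcl libraries gave 6.33, 7.28 and 5.48 and the ByJcl libraries 8.31, 8.95 and 10.2. On Day 5 it was 5.85 and 6.04 in Ajcl, with 4.44 in replicate 1, and 12.6, 15.2 and 12.2 in ByJcl. The ratio was higher in every ByJcl library than in every Ajcl library, and higher in every ByJcl Day 5 library than in every ByJcl baseline library. ByJcl was 1.44-fold above Ajcl at baseline (exact permutation p = 0.1, two-sided) and 2.23-fold above it on Day 5 (exact permutation p = 0.2). These are the smallest p-values that the group sizes allow, so neither can pass a threshold of 0.05. With the excluded library the Day 5 difference was 2.46-fold (exact permutation p = 0.1). In ByJcl the ratio was 1.46-fold higher on Day 5 than at baseline (exact permutation p = 0.1), and in Ajcl it overlapped between the times.

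**Figure D3:**
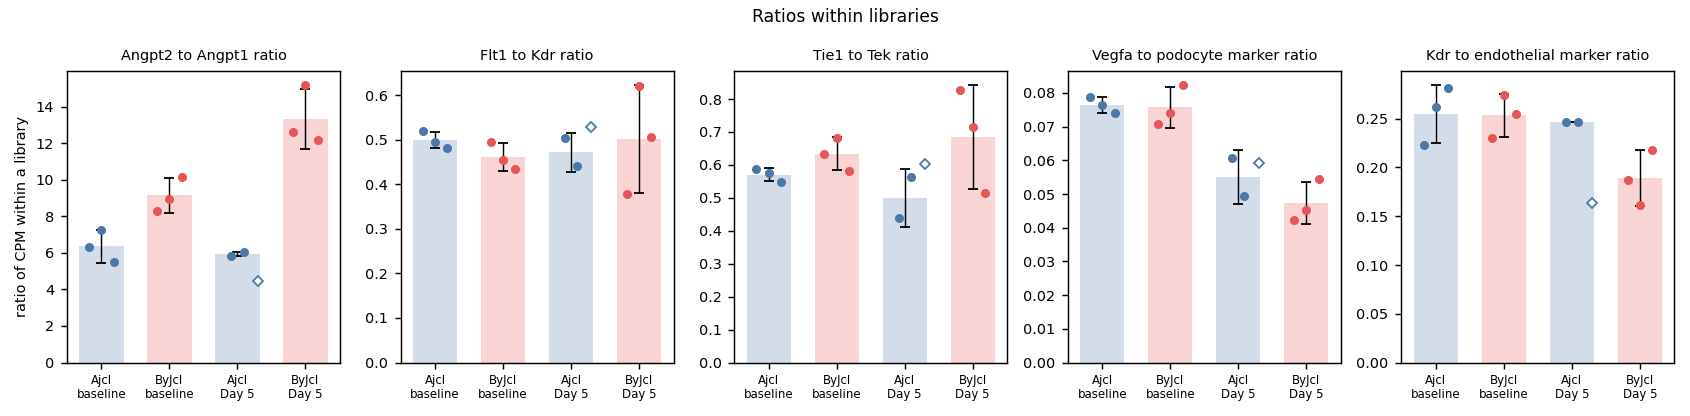
Ratios of CPM within a library (y axis, from 0, with its own range for each ratio) in the 4 groups, for the 3 gene pairs and for Vegfa and Kdr over the summed CPM of the podocyte and endothelial markers. Circles are libraries, bars and whiskers are mean and SD, and the open diamond is the excluded Ajcl Day 5 replicate 1. The Angpt2 to Angpt1 ratio lies between 12.2 and 15.2 in ByJcl on Day 5 and between 5.85 and 6.04 in Ajcl.

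The Tie receptors gave no call, and their groups overlapped in all 4 comparisons. Tek, on chromosome 4 from 94627291 to 94763224, had baseline levels of 658, 757 and 722 CPM in the Ajcl libraries and 689.6, 696 and 684 CPM in the ByJcl libraries. On Day 5 it was at 780.3 and 696 CPM in Ajcl (549 CPM in replicate 1) and at 528, 516 and 766 CPM in ByJcl. The ByJcl Day 5 libraries spread on both sides of the baseline values. The log2FC on Day 5 was -0.19 in ByJcl (SE 0.15, adjusted p = 0.452, edgeR) and 0.05 in Ajcl (SE 0.17, adjusted p = 0.951, edgeR), and the Ajcl value turned to -0.09 with all 12 libraries.

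Tie1, the orphan partner of TEK on chromosome 4 from 118328385 to 118347261, lay between 331 and 475 CPM in all 12 libraries. The lowest value, 331 CPM, was that of the excluded Ajcl Day 5 replicate 1. The log2FC of Tie1 on Day 5 was -0.13 in ByJcl (SE 0.11, adjusted p = 0.506, edgeR) and -0.15 in Ajcl (SE 0.12, adjusted p = 0.783, edgeR). The ratio of Tie1 to Tek overlapped in every comparison, with exact permutation p from 0.2 to 0.8.

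A further 35 genes of the pathway were described as lists, and all were tested. Of them 6 were called between baseline and Day 5 in ByJcl, 3 higher and 3 lower, and none in the other comparisons. Over all genes tested in ByJcl, 10.6% were called, 5.75% higher and 4.83% lower, and the counts of each list below are to be read against these shares. The other ligands and receptors (Pgf, Vegfd, Flt4 and Nrp2) and the 9 genes of the angiopoietin and Tie pathway gave no call. The medians of these lists in ByJcl on Day 5 were 0.07 and -0.22 on the log2 scale.

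Among 5 genes known to be induced by VEGF in endothelium, 2 were called higher and 1 lower in ByJcl on Day 5. Dll4, the Notch ligand of endothelial tip cells, was at 114.0, 149 and 106 CPM at baseline and at 54.8, 29.6 and 49.0 CPM on Day 5, with no overlap. It fell by 1.47 on the log2 scale (SE 0.22, adjusted p = 0.0032, edgeR). The Ajcl libraries of Dll4 did not overlap either, at a log2FC of -0.54 (SE 0.24), and gave no call (adjusted p = 0.502, edgeR). Apln, the ligand of the apelin receptor, went the other way, at 1.74, 2.12 and 2.69 CPM at baseline and 8.36, 6.53 and 2.72 CPM on Day 5 in ByJcl. The third Day 5 library of Apln was barely above the highest baseline library. The log2FC of Apln was 1.43 (SE 0.37, adjusted p = 0.0333, edgeR). The call was lost in 6 of 17 alternatives (adjusted p up to 0.107), with the replicate block and without any ByJcl library other than Day 5 replicate 3.

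Egr3, an immediate early transcription factor, was at 1.54, 1.84 and 4.09 CPM in ByJcl at baseline and at 11.4, 10.6 and 10.8 CPM on Day 5, a log2FC of 2.13 (SE 0.49, adjusted p = 0.0213, edgeR). In Ajcl it was at 1.10, 1.98 and 1.57 CPM and at 2.51 and 10.4 CPM (5.09 CPM in replicate 1), a log2FC of 2.05 (SE 0.53, adjusted p = 0.192, edgeR). The 2 Ajcl Day 5 libraries of Egr3 stood far from each other. In ByJcl the call was lost without baseline replicate 1 or 2 or Day 5 replicate 2 (adjusted p up to 0.0861). Esm1, a secreted proteoglycan of tip cells, and Rcan1, a calcineurin inhibitor, made up the list and were not called. In ByJcl the log2FC of Esm1 was -1.29 (SE 0.39, adjusted p = 0.0592, edgeR), close to the threshold. That of Rcan1 was 0.14 (SE 0.09, adjusted p = 0.346, edgeR). The ByJcl libraries of both genes did not overlap between the times. Members of this list therefore moved in both directions in ByJcl.

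Of 9 genes of VEGF receptor signalling, Shb, an adaptor of KDR, was called higher and Fyn, a kinase of the Src family that also phosphorylates nephrin in podocytes, was called lower in ByJcl on Day 5. Shb was at 27.9, 31.1 and 30.4 CPM at baseline and at 38.5, 50.4 and 45.1 CPM on Day 5 (log2FC 0.59, SE 0.14, adjusted p = 0.0241, edgeR). Its call was lost in 6 of 17 alternatives (adjusted p up to 0.0987), without Ajcl Day 5 replicate 2, any ByJcl baseline library, or ByJcl Day 5 replicate 2 or 3. Fyn was at 205, 203 and 197 CPM and at 145, 124 and 139.6 CPM (log2FC -0.57, SE 0.11, adjusted p = 0.0097, edgeR). Neither gene had overlapping libraries.

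Of 8 genes of oxygen sensing, which acts upstream of Vegfa, only Hif1an, a hydroxylase that restrains HIF, was called. It was at 89.9, 93.9 and 91.2 CPM in ByJcl at baseline and at 72.5, 63.5 and 75.6 CPM on Day 5, a log2FC of -0.38 (SE 0.10, adjusted p = 0.0377, edgeR). The call was lost in 10 of 17 alternatives (adjusted p up to 0.176), with all 12 libraries or the replicate block, and without either Ajcl Day 5 library or any ByJcl library. The median over the list was -0.09.

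**Figure D4:**
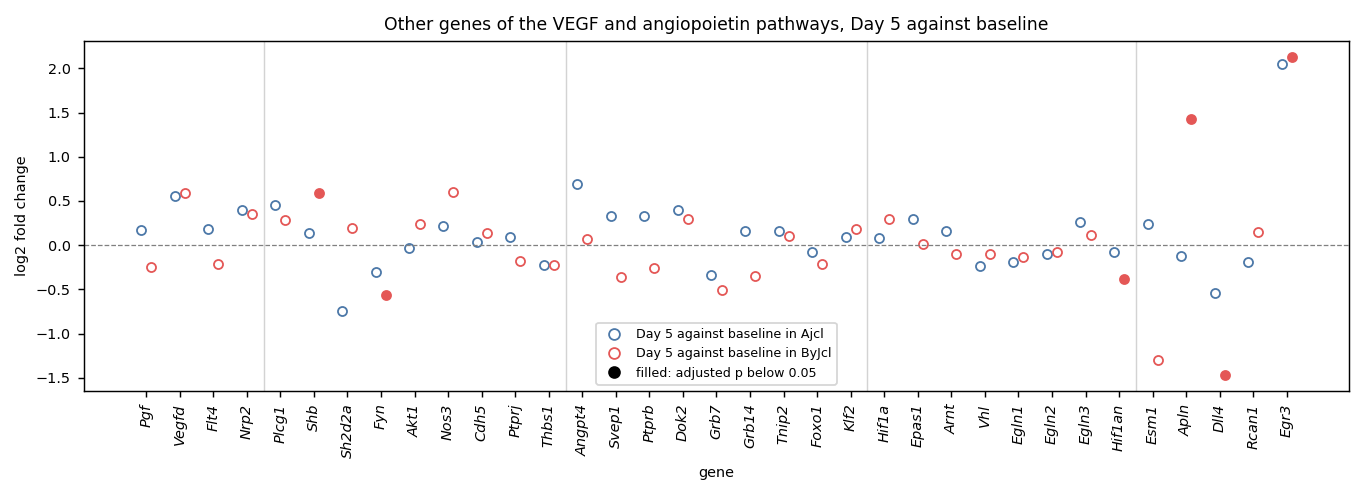
Log2 fold changes on Day 5 against baseline (y axis) of the 35 further pathway genes (x axis, with lines between the lists) in Ajcl (blue) and ByJcl (red). Filled points passed an adjusted p below 0.05, which are 6 ByJcl values and no Ajcl value. Egr3 is the highest and Dll4 the lowest point.

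The genes whose pattern over the 11 libraries was closest to that of the called members were found by the root mean square difference of log2(CPM + 1), each gene centred on its own mean. For Vegfa, whose own spread about its mean was 0.702, they included Pitpnm3 (0.135) and Synpo, an actin-associated podocyte protein (0.142). Synpo also belongs to the podocyte marker list. For Flt1, whose own spread was 0.271, they were Ero1b (0.0880), Zfp106 (0.0891) and C2cd2 (0.0905). The libraries share their depth, purity and group structure in each such comparison.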

How the data were processed

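RNA of isolated glomeruli was sequenced as strand-specific, poly(A)-selected paired-end libraries. According to the submitters' processing notes the authors used FastQC, Trimmomatic, STAR with GRCm39, and featureCounts. Counts were deposited as whole numbers for each gene symbol and library, without scaling or pooling. Annotation and strand setting are not given in the sources used here. Between 77.1% and 82.9% of counts from 1 to 49 in a library were even, and how the counting treated read pairs was not tested. Chi-square per degree of freedom between replicates was 47.1 to 289.9, so no library was counted as a copy of another.

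Groups came from the sample labels. Counts were analysed in R 4.3.3 with edgeR 4.0.16 (TMM, filterByExpr by group, glmQLFit, 1 coefficient per group), over 11 libraries with 7 residual degrees of freedom, and p-values were adjusted by Benjamini-Hochberg over 17002 genes. The pipeline was tested on simulated data. DESeq2 1.42.0, RLE size factors, 2 other filters, all 12 libraries, a replicate block and leaving out each library in turn were alternatives, and for Ajcl Day 5 replicate 1 was kept when replicate 2 or 3 was left out. Ratios were compared on the log2 scale by exact permutation tests (Python 3.11.15, scipy 1.17.1). Gene coordinates and exon lengths are from GENCODE on GRCm39, promoters from RefSeq on GRCm38.p6. Floors of 3 counts cover counting error only.

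The named genes are the 10 members in every comparison, the genes of the pathway lists called in any comparison, and the 3 genes of closest pattern for each called member. One gene that this rule names is not reported here. Members and lists were chosen with earlier results of these data known. Marker lists are described by counts and summed level. Of the 8 immune markers, Cd68 was called higher in ByJcl on Day 5 against baseline (log2FC 1.17), where 5.75% of all genes were called higher. Of the mural markers, Tagln was called higher in ByJcl on Day 5 against baseline (1.31) and against Ajcl (1.15). The 4 lymphatic endothelial markers summed to 129 to 230 CPM, with Ccl21a at 0 counts in every library and Pdpn, which podocytes also express, at 123 to 228 CPM in the 11 libraries.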

Additional observations from a re-analysis of the deposited data

How the results depend on the processing

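Of 1260 values recomputed under the alternatives, 1125 were counted as unchanged, 33 changed sign, and 37 lost and 11 gained a call. A further 54, all counts of calls, moved by over 1.5 times or between none and some. For genes, unchanged meant the same sign and side of the threshold. For ratios it meant the same sign alone, and for counts of calls a smaller move. By DESeq2, 1 member was called between substrains on Day 5 (Angpt2), 1 in Ajcl (Vegfa) and 4 in ByJcl on Day 5 (Vegfa, Kdr, Flt1 and Nrp1), and over all genes 101 were called at baseline, 535 between substrains on Day 5, 301 in Ajcl and 22 in the interaction. With RLE size factors, 1 member was called between substrains on Day 5 and 1 in ByJcl, as with all 12 libraries, where 72 genes were called between substrains on Day 5, 1197 in ByJcl, and Tek in Ajcl turned to -0.093. Without the filter 1 member and 56 genes were called between substrains on Day 5, and 99 genes in Ajcl. The correlation of deviations between libraries ran from -0.389 to 0.527 for shared replicate numbers and from -0.702 to 0.578 for differing ones. Shared numbers thus lay within the range of the others. With the replicate block 1 member was called in ByJcl, and 26 genes in Ajcl. With the mean log2 of the markers, Kdr to endothelial markers at baseline turned to 0.031. The causes were not tested.

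Leaving out 1 library at a time, Vegfa was called in ByJcl each time. Members called ranged from 0 to 1 between substrains on Day 5, from 0 to 1 in Ajcl and from 1 to 2 in ByJcl. Genes called ranged from 12 to 29 at baseline, from 15 to 793 between substrains on Day 5 (793 without Ajcl Day 5 replicate 3), from 14 to 148 in Ajcl (148 without Ajcl Day 5 replicate 2), from 680 to 2056 in ByJcl (680 without ByJcl Day 5 replicate 2) and from 0 to 2 in the interaction. Log2 values near 0 changed sign. Between substrains at baseline these were Vegfb from -0.144 to 0.102, Flt1 from -0.0569 to 0.122, Nrp1 from -0.0306 to 0.146, Vegfa to podocyte markers from -0.0761 to 0.0349 and Kdr to endothelial markers from -0.102 to 0.0662. Between substrains on Day 5 these were Vegfc from -0.0789 to 0.395, Flt1 from -0.432 to 0.0111 and Flt1 to Kdr from -0.105 to 0.253. In Ajcl on Day 5 these were Vegfb from -0.452 to 0.0298, Tek from -0.234 to 0.0978, Angpt2 to Angpt1 from -0.31 to 0.0133, Flt1 to Kdr from -0.107 to 0.0488, Tie1 to Tek from -0.227 to 0.0321 and Kdr to endothelial markers from -0.34 to 0.0298. In the interaction these were Vegfb from -0.47 to 0.0005, Vegfc from -0.342 to 0.124, Tek from -0.422 to 0.0167 and Tie1 from -0.0455 to 0.166. In ByJcl on Day 5 these were Flt1 to Kdr from -0.0719 to 0.286 and Tie1 to Tek from -0.0599 to 0.283. Where 2 genes are named the value is their ratio. No ratio test could reach 0.05 at these group sizes.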
